A study of Mus musculus with 12 samples.

Results

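The comparison described here set T follicular helper (Tfh) cells sorted as negative for a GFP reporter against other CD4+ T cells. The latter came from the same gut lymphoid tissue and carried neither follicular marker. The members were chosen by sample title: 3 arrays labelled GFP-, CXCR5+ and PD1+ (GFP- Tfh) and 3 labelled GFP-, CXCR5- and PD1- (CXCR5-PD1- cells), 6 of the 12 arrays of the series. The other 6 arrays held GFP+ Tfh (3) and GFP- cells that were CXCR5+PD1- (3). All mice were IL-21eGFP bacterial artificial chromosome transgenics, in which enhanced GFP reports the gene for interleukin 21. All cells were sorted from Peyer's patches as CD4+ and negative for MHC class II and Epcam, and RNA was measured on Affymetrix mouse gene arrays. The labels used here give no age, strain background or treatment, do not say whether a replicate was 1 animal or a pool, and call the cell type T follicular helper on every array, the CXCR5-PD1- ones included. On the GFP+ arrays the listed CXCR5 and PD1 state (negative) goes against the titles, which were followed. Both groups were GFP-, so neither held the cells with the brightest reporter.

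Tfh cells are the CD4+ T cells that enter B cell follicles and help germinal centre B cells to mature their antibodies. The receptor CXCR5 draws them to the follicle, the repressor BCL6 directs their programme, and interleukins 21 and 4 with contact signals through ICOS, CD40 ligand and the adaptor SAP deliver help. In Peyer's patches, germinal centres are driven by gut microbes and food, and Tfh cells there support class switching to IgA. CD4+ T cells without CXCR5 and PD-1 are a mixture of naive, memory and regulatory cells, many of which recirculate through S1PR1, the receptor for the egress signal, and CCR7, which leads cells to the T zone.

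Values are log2 expression after the authors' RMA normalisation, so a difference of 1 is a factor of 2. Group values are mean ± SD with n = 3 and differences are GFP- Tfh minus CXCR5-PD1- ± SE. Differences were tested with limma across 11240 genes, and a gene was called at a Benjamini-Hochberg adjusted p under 0.05. Values of a dim gene are compressed, so a fold is a measured fold on this scale and no upper limit. In RNA of sorted cell pools, fewer cells that express a gene and less RNA per cell cannot be told apart.

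The 4 genes that mark this comparison went with the labels. Cxcr5 stood at 8.11, 8.61 and 7.91 in GFP- Tfh replicates 1 to 3 against 6.19, 5.59 and 5.36 in the CXCR5-PD1- replicates, an order kept for all values below. Pdcd1 encodes PD-1 and measured 9.13, 9.43 and 8.75 against 6.81, 6.93 and 6.88. Both proteins were used for the sort, so these differences (2.50 ± 0.26 and 2.23 ± 0.28) check the gate and are no finding. Bcl6 stood at 9.67, 9.97 and 9.43 against 8.17, 8.38 and 8.33, and S1pr1 at 8.23, 8.51 and 8.74 against 10.85, 11.08 and 11.52. For all 4 genes the groups did not overlap, as for 21.6% of all genes tested, and the nearest arrays lay 1.72, 1.82, 1.04 and 2.11 apart.

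Of the 11240 genes, 429 were called (3.82%), 249 higher (2.22%) and 180 lower (1.60%) in GFP- Tfh. The differences of called genes had a median size of 1.04, with 139 higher and 87 lower by more than 1, and 21 higher and 12 lower by more than 2. The 2 groups did not overlap in 2427 genes (21.6%), the 429 called ones among them, and the median difference of all genes tested was 0.000627. In 79 called genes, 42 higher and 37 lower in GFP- Tfh, 1 of the groups averaged less than the median of its arrays. The number of calls depended on single arrays: it dropped to 280 when GFP- Tfh replicate 1 was left out and to 237 when replicate 2 was. Leaving out CXCR5-PD1- replicate 2 gave 261, and leaving out replicate 3 gave 228. A total of 192 genes, 112 higher and 80 lower, were called in every one of the 6 fits that left out 1 of the 6 arrays, and each gene named below was one of these unless its loss is stated.

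**Figure D1:**
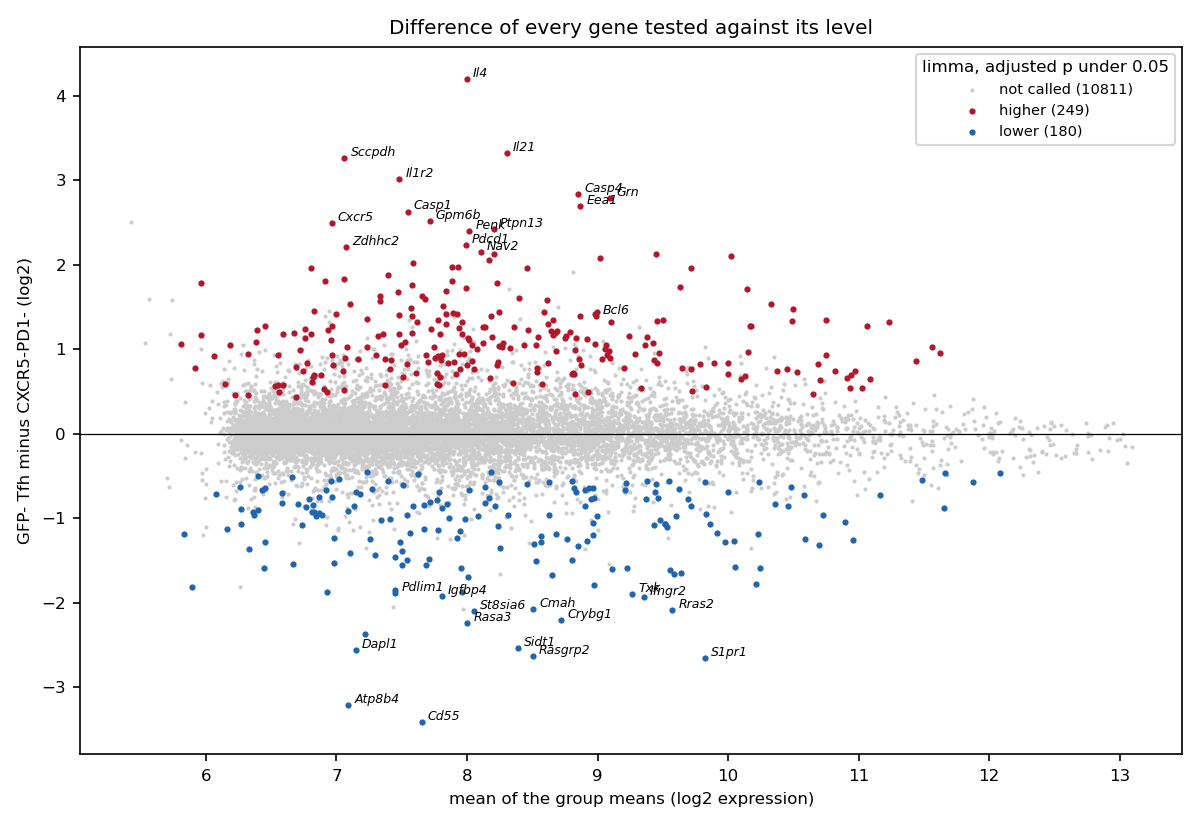
Difference between GFP- Tfh and CXCR5-PD1- cells (log2, y axis) against the mean of both group means (log2 expression, x axis) for the 11240 genes tested. Red points are the 249 genes called higher and blue points the 180 called lower by limma, with the marker genes and the 15 highest and 15 lowest named, and called genes lie at low and at high levels.

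Replicate 3 of each group came from female and replicates 1 and 2 from male cells, by Xist (11.11 and 10.84 against 4.87 to 5.49) and the Y-linked Eif2s3y (3.79 and 4.0 against 8.87 to 9.30). Sex was thus balanced between the groups. With the male arrays alone 266 genes were called, 212 of them among the 429, and of the 31 marker, highest and lowest genes only Rras2 was not called. Marker lists for plasma and germinal centre B cells, other B cells, stroma, epithelium, myeloid cells and NKT cells had 2 of their 18 tested members at an unadjusted p under 0.05 and 0 called by limma. Over all genes 1481 of 11240 had such a p and 3.82% were called, so these counts lie near the shares of all genes. The part of such cells in the results was not tested. The means of the 7 general B cell markers and the 10 myeloid markers lay at most 0.115 above the array median in both groups, while Xbp1, listed for plasma cells, lay 1.54 and 1.59 above it. Of 7 stromal markers 6 lay above it on all 6 arrays, with summed levels of 8.67 to 9.61 against 8.74 to 9.63, and of 8 epithelial ones Krt8 and Lgals4 did. The T cell genes Cd3d, Cd3e, Cd3g, Cd28 and Cd4 lay above the median on all 6 arrays, and none of them was called.

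The helper cytokine genes showed the highest difference in the table. Il4, whose product drives B cell growth and switching, stood at 10.41, 10.19 and 9.69 against 6.48, 5.81 and 5.40, a rise of 4.20 ± 0.69 (18.4-fold, adjusted p = 0.00512). Il21, the gene the reporter follows, stood at 10.17, 10.15 and 9.57 against 7.24, 7.31 and 5.39, a rise of 3.32 ± 0.56 (adjusted p = 0.00557). The GFP- Tfh arrays thus held Il21 RNA though their cells were sorted as reporter-negative, and the GFP+ Tfh arrays stood at 10.82, 10.73 and 10.25. The arrays do not measure GFP protein, so dim reporter in the GFP- gate was not tested. The female array was the lowest of its group for Il21 in all 4 groups, and with the male arrays alone the difference was 2.89 ± 0.32.

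Of 17 measured ligand and cytokine genes 3 rose (17.6%, beside 2.22% of all genes), 0 fell and 14 were not called. The median difference of the 17 was 0.18. This and all other gene lists were drawn up with earlier results of these data known, so the shares called are descriptions only. The third that rose, Csf1, a growth factor gene of macrophages, stood at 7.81, 7.29 and 7.05 against 6.60, 6.43 and 6.67. It lost its call without any 1 of the 6 arrays except GFP- Tfh replicate 3, at adjusted p of 0.0868 to 0.134. Il10 stood at 7.92, 8.29 and 7.47 against 6.98, 6.88 and 6.64 and was not called (1.06 ± 0.30, adjusted p = 0.0872), nor were Ifng (-0.26), Tnf (0.18), Il17a (0.57) and the follicle chemokine gene Cxcl13 (0.39). The 14 uncalled genes lay between -0.41 and 1.06, well under the differences of Il4 and Il21.

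The calcineurin and NFAT genes are shown with promoters of 3 genes that rose, because NFAT proteins, once dephosphorylated by calcineurin, drive cytokine and receptor genes after antigen contact. Nfatc1 stood at 9.44, 9.47 and 9.12 against 8.27, 8.12 and 8.15 (1.16 ± 0.16, adjusted p = 0.00147). Nfatc2 stood at 8.04, 8.12 and 8.03 against 7.39, 7.41 and 7.61 (0.59 ± 0.10, adjusted p = 0.00638). Ppp3ca, a catalytic subunit of calcineurin, went the other way, at 7.08, 7.22 and 7.02 against 8.09, 8.34 and 8.27 (-1.12 ± 0.11, adjusted p = 0.000185). Of the 14 measured members 2 NFAT genes thus rose and 1 enzyme gene fell (21.4% called, beside 3.82% of all genes). The other 11, with the NFAT genes Nfat5 and Nfatc3 among them, lay between -0.54 and 0.33 without a call. The 250 bases before the RefSeq start (GRCm38.p6) are printed 5′ to 3′ for Il21 (chr3:37232637-37232886, minus strand), the upstream of 2 listed starts of Il4 (chr11:53618666-53618915, minus strand) and Ctla4 (chr1:60908775-60909024, plus strand). Capitals mark TGGAAAA, an NFAT-type motif, on either strand.
Il21: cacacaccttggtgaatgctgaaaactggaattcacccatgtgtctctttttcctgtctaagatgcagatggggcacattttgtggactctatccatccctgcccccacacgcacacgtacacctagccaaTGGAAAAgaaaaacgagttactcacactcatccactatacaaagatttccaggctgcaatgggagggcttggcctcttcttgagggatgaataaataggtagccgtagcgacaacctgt
Il4: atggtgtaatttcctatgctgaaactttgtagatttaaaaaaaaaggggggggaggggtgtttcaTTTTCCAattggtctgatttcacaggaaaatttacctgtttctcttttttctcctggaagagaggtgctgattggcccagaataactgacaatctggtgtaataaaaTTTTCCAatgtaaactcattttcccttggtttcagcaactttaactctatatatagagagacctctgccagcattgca
Ctla4: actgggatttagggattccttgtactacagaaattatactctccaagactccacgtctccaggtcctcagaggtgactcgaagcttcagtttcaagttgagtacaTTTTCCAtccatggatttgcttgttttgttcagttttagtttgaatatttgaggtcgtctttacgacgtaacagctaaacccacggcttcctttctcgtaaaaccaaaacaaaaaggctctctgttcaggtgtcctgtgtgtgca
The match lies 119 bases before the start of Il21, at 185 and 78 bases before that of Il4, and at 145 bases before that of Ctla4. In the full windows of 300 bases this motif was present in 6.73% of 32851 promoters, in 5.36% of 8971 genes tested, in 10 of 182 genes that rose (5.49%) and in 7 of 140 that fell (5%). The share among called genes was near that of all genes, and the 3 promoters were picked because they hold the motif, so the letters describe these genes only. The other Il4 start has 0 matches in its 250 bases.

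Of 18 measured transcription factors of the Tfh programme, 9 were called (50%, beside 3.82% of all genes), 8 higher and 1 lower. The other 9 were not called, and the median difference of the 18 was 0.58, beside 0.000627 over all genes. Tox2, an HMG-box gene of Tfh cells, stood at 8.66, 8.96 and 8.42 against 6.96, 7.0 and 7.02 (1.69 ± 0.21, adjusted p = 0.000942). Its relative Tox stood at 11.23, 11.34 and 11.14 against 9.61, 9.82 and 9.86 (1.47 ± 0.17), and Bcl6 rose by 1.39 ± 0.15 (adjusted p = 0.00045). Bhlhe40, a repressor induced on activation, stood at 8.97, 9.45 and 9.32 against 8.14, 8.36 and 7.73 (1.17 ± 0.18). The groups of these 4 genes did not overlap, as in all 429 called genes, with gaps of 0.61 (Bhlhe40) to 1.41 (Tox2) between the nearest arrays.

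Maf, an activator of Il4 and Il21, stood at 9.21, 9.08 and 9.06 against 8.08, 8.43 and 7.40 (1.15 ± 0.23, adjusted p = 0.0149). It lost its call without GFP- Tfh replicate 1 or 2 (adjusted p = 0.0636 and 0.0559). Egr2, an early gene of receptor signalling, rose by 0.65 ± 0.15 and lost its call without 5 of the 6 arrays, all but CXCR5-PD1- replicate 1, at adjusted p of 0.0735 to 0.147. Batf (0.48 ± 0.14), Pou2af1 (0.60 ± 0.26) and Irf4 (0.20 ± 0.24), which also act in Tfh cells, were not called. Ascl2, which can switch on Cxcr5, was too dim to be tested, at 6.19, 5.85 and 6.06 against 5.71, 5.74 and 6.01. Of the 8 genes that rose, Bcl6, Tox, Tox2, Bhlhe40, Nfatc1 and Nfatc2 were called in every fit that left out an array.

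**Figure D2:**
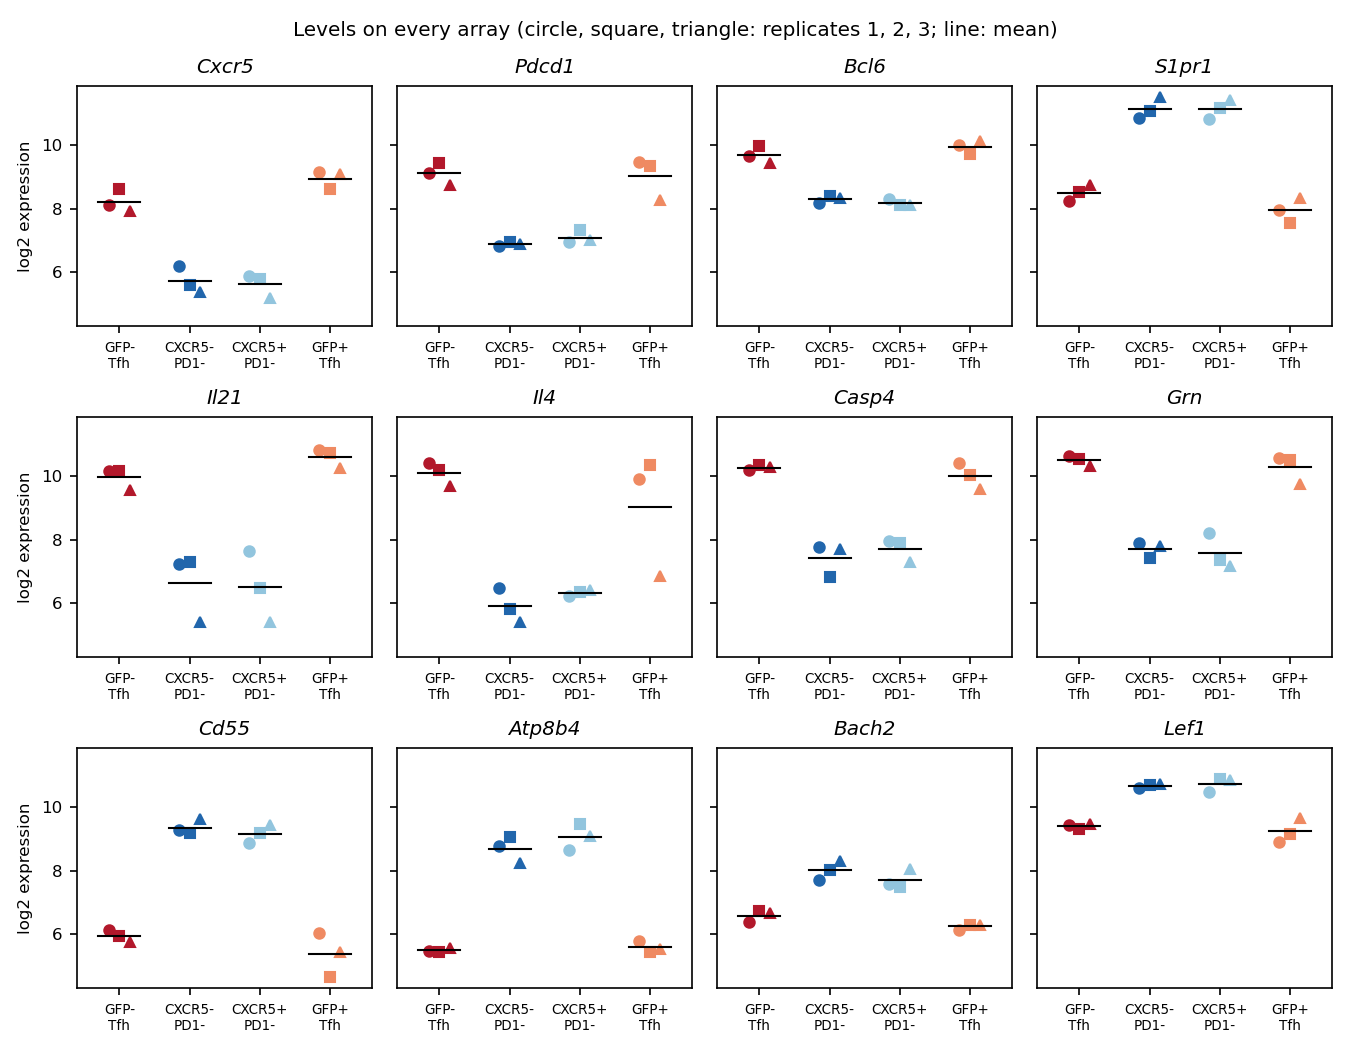
Log2 expression of 12 genes on every array of the 4 sorted groups, with circle, square and triangle for replicates 1, 2 and 3 and a line at the group mean. In each panel the 3 GFP- Tfh arrays lie entirely above or entirely below the 3 CXCR5-PD1- arrays, and the CXCR5+PD1- arrays lie with the latter.

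Regulators that hold cells outside the Tfh fate or in a resting state were lower or not called. Lef1 belongs to the Tfh list by its role early in differentiation but is also high in naive cells, and it stood at 9.43, 9.32 and 9.47 against 10.61, 10.70 and 10.72, a fall of 1.27 ± 0.18 (adjusted p = 0.0021). Bach2, a repressor that keeps lymphocytes from effector fates, stood at 6.36, 6.73 and 6.65 against 7.71, 8.02 and 8.31 (-1.43 ± 0.19, adjusted p = 0.00118). Foxp1, a forkhead factor of quiescent T cells and a brake on Tfh differentiation, stood at 9.0, 9.05 and 8.90 against 9.66, 9.70 and 9.90 (-0.77 ± 0.11, adjusted p = 0.00237). As in all 429 called genes, the groups of these 3 did not overlap, and the nearest arrays were 0.61 to 1.14 apart. Klf2, which switches on S1pr1, stood at 8.63, 8.45 and 8.77 against 9.17, 9.24 and 9.36 (-0.64 ± 0.14, adjusted p = 0.0292) and lost its call without any 1 of 5 arrays, all but GFP- Tfh replicate 3 (adjusted p = 0.0629 to 0.134). Of the 16 measured antagonists of the Tfh fate 3 fell, 0 rose and 13 were not called, among them Foxo1 (-0.03 ± 0.16), the repressor Prdm1 (-0.25 ± 0.24), which lay near the array median, and the ubiquitin ligase genes Cblb (0.01) and Itch (0.14). The 3 that fell were 18.8% of this list, beside 1.60% of all genes, and its median was -0.08. Klf2, Foxp1 and Bach2 are also counted in the quiescence list below.

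Of the receptors for egress and T zone homing, S1pr1, Ccr7 and Selplg were lower and S1pr4 was not called (-0.42 ± 0.20). S1pr1 fell by 2.66 ± 0.24 (6.30-fold, adjusted p = 0.000115). Ccr7 stood at 9.10, 9.25 and 9.63 against 10.92, 11.08 and 11.32 (-1.78 ± 0.20), and Selplg, the gene of the selectin ligand PSGL-1, at 8.16, 7.87 and 7.76 against 8.98, 9.32 and 9.33 (-1.28 ± 0.22, adjusted p = 0.00602). Cxcr5 of the same list, a gene of the sort gate, is given above. Gna13, a G protein that confines cells to germinal centres, rose by 0.73 ± 0.15 but lost its call without GFP- Tfh replicate 2 or 3 or CXCR5-PD1- replicate 1 or 2 (adjusted p = 0.0536 to 0.0844). S1pr2, the confining receptor, stood at 7.21, 7.19 and 7.32 against 6.96, 6.99 and 6.85, which did not overlap and was not called (0.31 ± 0.11, adjusted p = 0.216). Cxcr4 (0.26 ± 0.11) and Gpr183 (-0.27 ± 0.18), which position cells within follicles, were not called either. Rgs16, which shortens chemokine receptor signals, was higher by 1.27 ± 0.33 and was not called (adjusted p = 0.0583). Of the 12 measured follicle and egress genes 2 rose and 3 fell (41.7% called, beside 3.82% of all genes), with a median of -0.04. Without Cxcr5, 1 of 11 rose (Gna13) and 3 fell (36.4% called), with a median of -0.27.

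Adhesion genes changed in both directions. Cd44, the hyaluronan receptor of antigen-experienced T cells, stood at 9.30, 9.48 and 9.44 against 7.81, 7.83 and 7.84, a rise of 1.58 ± 0.12 (adjusted p = 5.27e-05). Itgal, the alpha chain of the integrin LFA-1 that binds ICAM on B cells, stood at 9.91, 9.86 and 9.52 against 8.85, 8.24 and 8.24 (1.32 ± 0.18). Itga6, the laminin receptor chain, stood at 8.16, 8.13 and 8.26 against 9.40, 9.45 and 9.69 (-1.33 ± 0.17), and Itgb7, a chain of the gut homing integrin, at 7.13, 6.99 and 7.08 against 8.11, 8.09 and 7.87 (-0.96 ± 0.13, adjusted p = 0.00182). Its partner Itga4 (-0.17) and the gut chemokine receptor Ccr9 (-0.54 ± 0.30) were not called. Gpr18 was lower by 1.10 ± 0.22 and lost its call without GFP- Tfh replicate 1 or 3 or CXCR5-PD1- replicate 2 or 3 (adjusted p = 0.0652 to 0.0832). Of 15 measured members 2 rose and 3 fell (33.3% called, beside 3.82% of all genes), around a median of 0.21.

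The list of quiescence and recirculation genes had the most members called, 18 of 31 lower (58.1%, beside 1.60% of all genes) and 0 higher. Its median was -0.64. Some of its members had been seen to fall in these arrays when the list was drawn up, so its count is no independent evidence of a direction. Klf2, Foxp1, Bach2, Lef1, S1pr1, Ccr7, Il7r and Cd55 among the 18 are also counted in other lists. Txnip, which curbs glucose uptake, stood at 9.40, 9.02 and 9.39 against 10.96, 10.69 and 10.87 (-1.57 ± 0.16). Pik3ip1, an inhibitor of PI3 kinase, stood at 7.39, 7.08 and 7.45 against 8.56, 8.51 and 8.55 (-1.24 ± 0.20). Satb1, Klf2, Klf3, Tob1 and Il7r were among the 18 and lost their calls without 3 to 5 of the 6 arrays each, at adjusted p of 0.0507 to 0.176. Il7r, the survival receptor of resting T cells, stood at 9.36, 9.32 and 9.66 against 10.99, 11.09 and 11.04 (-1.59 ± 0.30) and lost its call without GFP- Tfh replicate 1 or 2 or CXCR5-PD1- replicate 2 or 3 (adjusted p = 0.0509 to 0.0603). The count of lower members was 13 to 16 on leaving out an array, and 13 of the 18 were called in all 6 such fits. Foxo3, Tsc1, Slfn2 and Btg1 of the list differed by -0.21 to 0.02 and were not called.

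**Figure D3:**
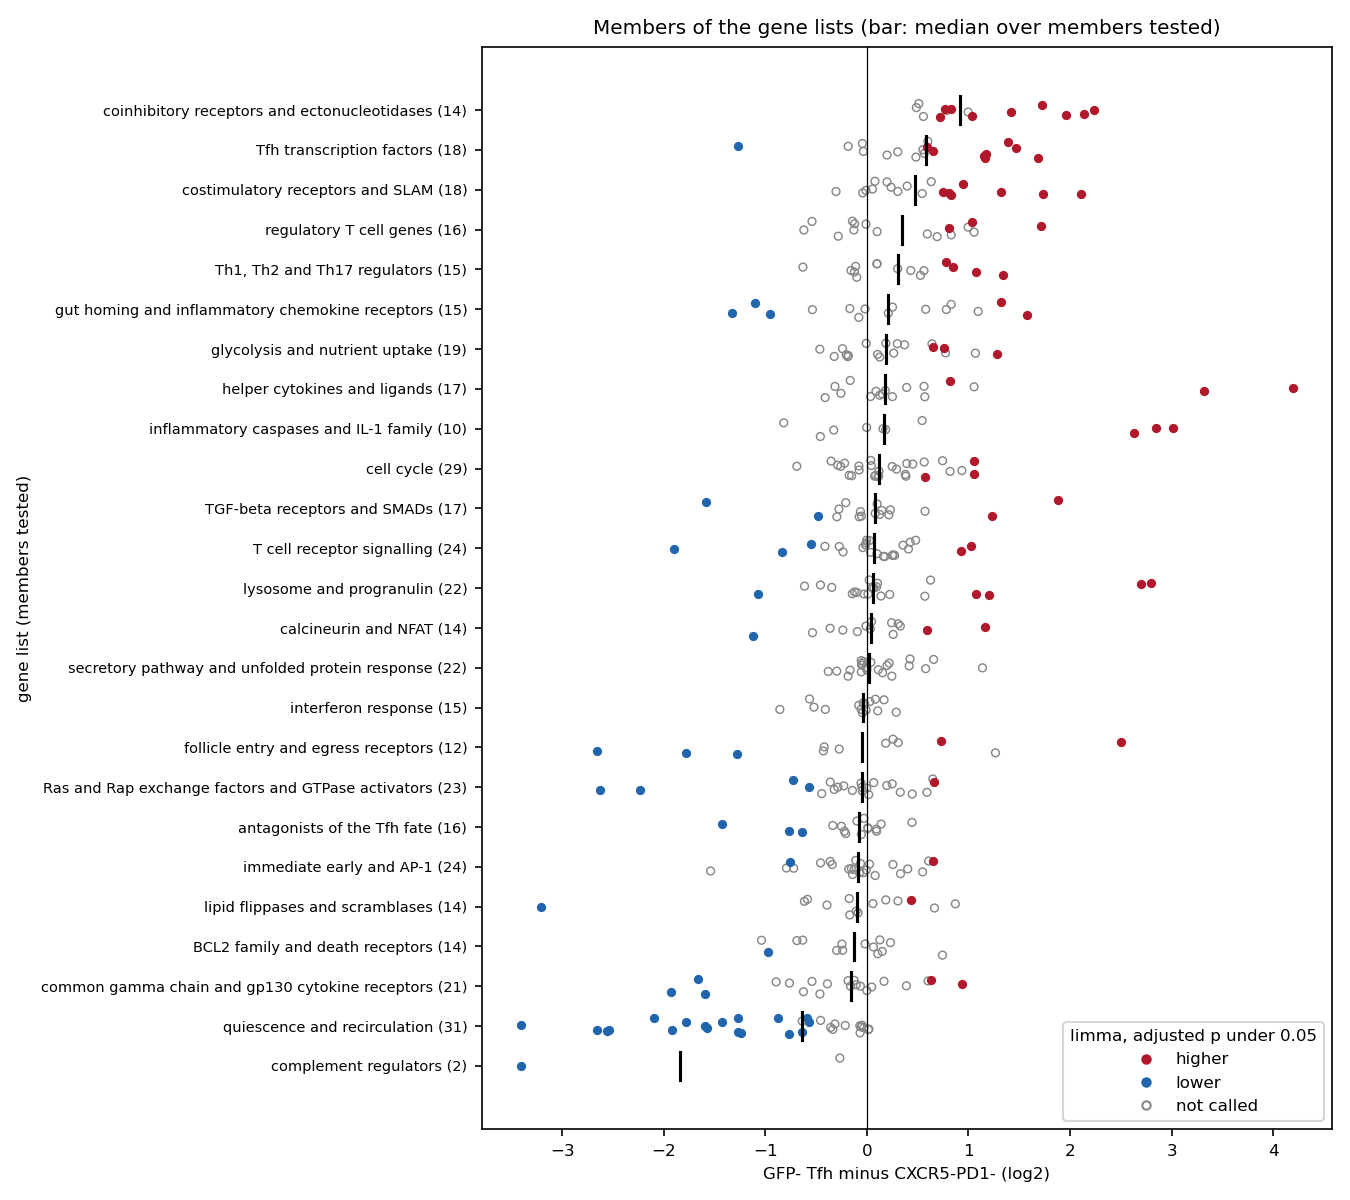
Difference between GFP- Tfh and CXCR5-PD1- cells (log2, x axis) of each tested member of 25 gene lists (y axis, number of members tested in brackets), with red for called higher, blue for called lower and open circles for not called, and a bar at the median. Coinhibitory receptors have the highest median among lists, and quiescence genes have the lowest of those with more than 2 members tested.

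Cd55, which protects cells from complement, had the lowest difference, at 6.14, 5.95 and 5.75 against 9.26, 9.18 and 9.63 (-3.41 ± 0.29, adjusted p = 0.000101). Atp8b4, a P4-type flippase gene, stood at 5.46, 5.43 and 5.56 against 8.79, 9.05 and 8.25 (-3.21 ± 0.23). Both lay below the array median in GFP- Tfh and well above it in all CXCR5-PD1- arrays. Other complement genes were mostly too dim to test, with Cr1l the only other tested of 11 on the array (-0.27). Of the 14 measured flippase and scramblase genes no other was called lower, though 8, Atp8b4 included, had a difference below 0. Uncalled members reached -0.62, and 3 members were called lower when the 2 groups were fitted alone. Atp9a of that list rose by 0.43 ± 0.11 and lost its call without any 1 array but GFP- Tfh replicate 3 (adjusted p = 0.122 to 0.2). Atp8b4 and Atp9a were 14.3% of the 14, beside 3.82% of all genes. Dapl1, high in naive T cells, stood at 6.19, 5.78 and 5.64 against 8.30, 8.72 and 8.26 (-2.56 ± 0.20), and Sidt1, of a family of RNA transport proteins, at 7.31, 7.33 and 6.73 against 9.62, 9.69 and 9.67 (-2.54 ± 0.21).

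The small GTPase regulators among the lowest genes act on Rap and Ras. Rasgrp2, which activates Rap1 and through it integrins, stood at 7.43, 7.03 and 7.10 against 9.81, 9.63 and 10.01 (-2.63 ± 0.23). Rasa3, which switches off Ras and Rap, stood at 6.54, 6.96 and 7.16 against 9.08, 9.24 and 9.04 (-2.24 ± 0.24). An activator and an inactivator thus fell together. Rras2, a Ras relative, stood at 8.28, 8.86 and 8.44 against 10.38, 10.74 and 10.73 (-2.09 ± 0.38, adjusted p = 0.00978). Rap1a rose by 0.66 ± 0.15, Rapgef6 fell by 0.73 ± 0.16 and Dok2 fell by 0.57 ± 0.13, and these 3 lost their calls without at least 4 of the 6 arrays (adjusted p = 0.0736 to 0.145). Of 23 measured members 1 rose and 4 fell (21.7% called, beside 3.82% of all genes). Rasgrp1, the main Ras activator below the T cell receptor, differed by -0.06.

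St8sia6, a sialyltransferase gene, stood at 7.04, 6.73 and 7.24 against 9.16, 8.97 and 9.17 (-2.10 ± 0.15, adjusted p = 5.01e-05). Cmah, which makes the glycolyl form of sialic acid, stood at 7.74, 7.54 and 7.13 against 9.64, 9.47 and 9.51 (-2.07 ± 0.26). St6gal1, another sialyltransferase gene, was not called (-0.07 ± 0.21). Igfbp4, a binding protein of insulin-like growth factors high in naive CD4+ cells, stood at 7.01, 6.82 and 6.73 against 8.54, 8.80 and 8.95 (-1.91 ± 0.14). Txk, a Tec family kinase gene, stood at 8.23, 8.47 and 8.25 against 9.84, 10.46 and 10.35 (-1.90 ± 0.25). The nearest arrays of the groups were 1.36 apart for Txk and 1.54 to 1.73 apart for St8sia6, Cmah and Igfbp4. Crybg1 (-2.20 ± 0.30) and the cytoskeletal gene Pdlim1 (-1.88 ± 0.16) each had a second probe set that was not called (0.09 ± 0.13 and -0.62 ± 0.28), so their differences hold for 1 probe set only.

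Of 21 measured cytokine receptor genes 5 were called (23.8%, beside 3.82% of all genes), and 15 had a difference below 0. Ifngr2, a chain of the interferon gamma receptor, stood at 8.28, 8.31 and 8.56 against 9.76, 10.57 and 10.63 (-1.93 ± 0.30, adjusted p = 0.00387). Il4ra, the chain through which a cell senses interleukin 4, stood at 8.53, 8.83 and 8.91 against 10.24, 10.51 and 10.51 (-1.66 ± 0.23). GFP- Tfh were thus higher in Il4 and lower in this receptor gene. Il2rb, a signalling chain for interleukins 2 and 15, stood at 9.79, 9.78 and 9.71 against 9.15, 8.83 and 8.49 (0.94 ± 0.17, adjusted p = 0.0105), while Il2ra, the high-affinity chain, differed by -0.54 ± 0.28 and was not called. Il6st, the shared chain of the interleukin 6 family, rose by 0.64 ± 0.13 and lost its call without GFP- Tfh replicate 2 or CXCR5-PD1- replicate 2 or 3 (adjusted p = 0.0726 to 0.0884), and Il6ra (-0.39 ± 0.14) and Il21r (-0.46 ± 0.20) were not called. In all 2 receptor genes rose and 3 fell, with a median of -0.16.

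Receptors and adaptors through which T cells speak to B cells were higher in part. Tnfsf8, the CD30 ligand gene, stood at 11.01, 11.27 and 10.93 against 9.30, 8.48 and 9.12 (2.11 ± 0.20, adjusted p = 0.000173). Sh2d1a, which encodes SAP, stood at 10.48, 10.53 and 10.49 against 8.76, 8.62 and 8.92 (1.74 ± 0.16), and Icos at 11.68, 12.10 and 11.90 against 10.64, 10.56 and 10.51 (1.32 ± 0.15). Of the 18 measured costimulatory and SLAM genes 7 rose (38.9%, beside 2.22% of all genes) and 0 fell, with a median of 0.47. Only Tnfsf8, Sh2d1a and Icos held in every fit without 1 array, where the count was 3 or 4. Slamf6, Fyn, Tnfrsf4 and Tnfrsf9 rose by 0.75 to 0.95 in the full fit and lost their calls without at least 5 arrays each (adjusted p = 0.0508 to 0.192). Cd40lg stood at 9.11, 8.95 and 9.09 against 8.62, 8.44 and 9.18, which overlap, and Cd28 differed by 0.08 ± 0.15.

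Coinhibitory receptors and ectonucleotidases rose as 9 of 14 measured members (64.3%, beside 2.22% of all genes), with 0 lower. The differences of all 14 were above 0. Their median was 0.91. Pdcd1, by which the cells were sorted, is 1 of the 9, and without it 8 of 13 rose (61.5%), with a median of 0.83. Tigit, which competes with a costimulatory receptor for its ligands, stood at 10.50, 10.78 and 10.27 against 8.90, 8.56 and 7.69 (2.13 ± 0.32, adjusted p = 0.00267). Nt5e, which encodes CD73 and makes adenosine outside the cell, stood at 9.46, 9.49 and 9.37 against 7.77, 7.80 and 6.85 (1.96 ± 0.27). Ctla4 stood at 12.06, 12.16 and 12 against 11.15, 11.19 and 10.79 (1.03 ± 0.16), and Cd274, the PD-L1 gene, at 8.53, 8.46 and 8.33 against 7.56, 7.73 and 7.73 (0.76 ± 0.13). The GFP- Tfh arrays of these genes lay close together, while replicate 3 was the lowest CXCR5-PD1- array for Tigit, Nt5e and Ctla4.

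The phosphatase gene Ptpn22 rose by 0.83 ± 0.14. Lag3, a class II ligand receptor, stood at 8.66, 8.66 and 8.59 against 7.66, 7.02 and 6.98 (1.42 ± 0.29) and lost its call without any 1 array but CXCR5-PD1- replicate 1 (adjusted p = 0.0543 to 0.088). Cd200 (1.72 ± 0.35) and the ATP receptor gene P2rx7 (0.72 ± 0.15) lost theirs without GFP- Tfh replicate 1 or 2 or CXCR5-PD1- replicate 2 or 3 (adjusted p = 0.0556 to 0.106). Izumo1r (1.0 ± 0.28, adjusted p = 0.0783) and Btla (0.78 ± 0.27) were not called, and Entpd1, the enzyme that supplies CD73 with AMP, was too dim to be tested. The number called was 6 to 10 on leaving out 1 array.

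**Figure D4:**
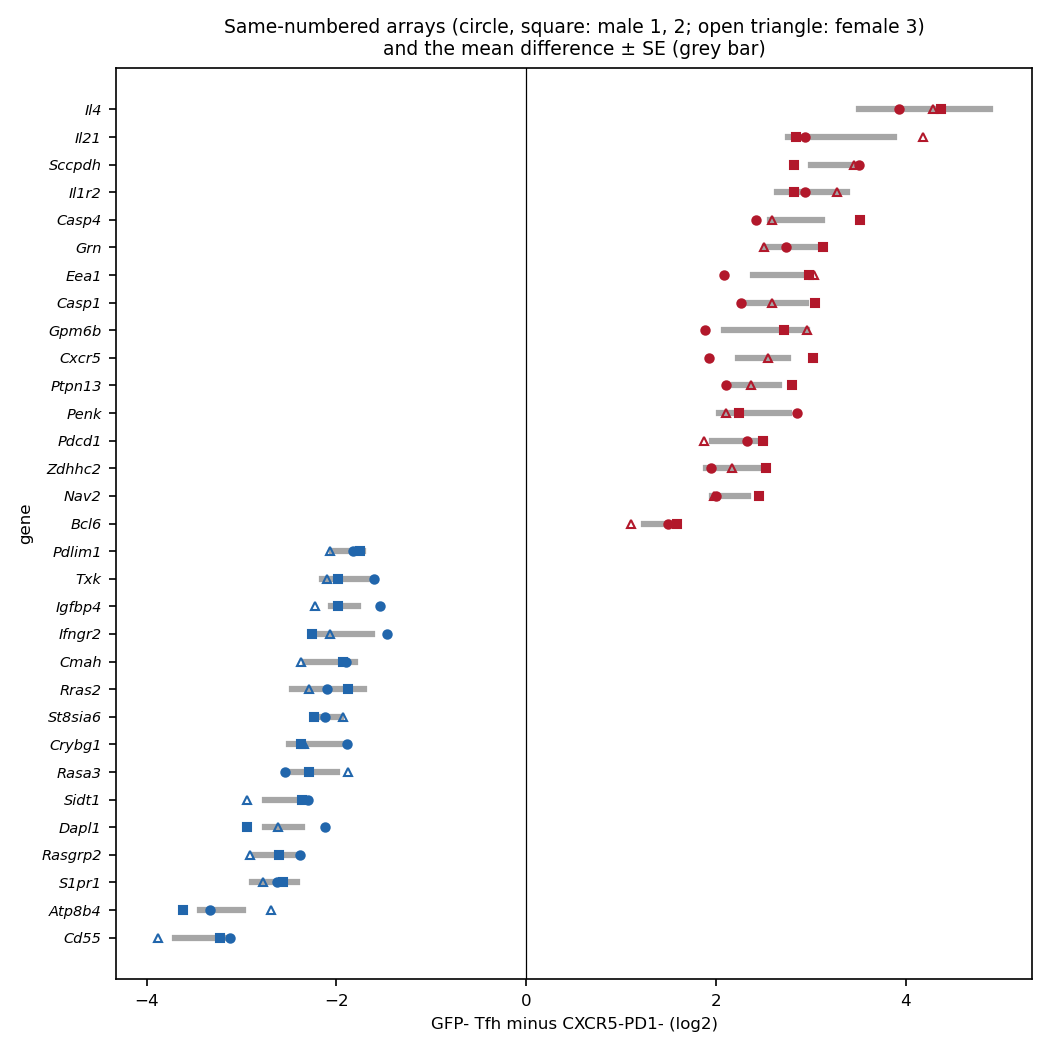
Difference between the same-numbered GFP- Tfh and CXCR5-PD1- arrays (log2, x axis) for the marker genes and the 15 highest and 15 lowest genes (y axis), with circles and squares for male replicates 1 and 2, open triangles for female replicate 3 and a grey bar for the mean difference ± SE. All 3 points of every gene lie on the same side of 0, as they must where the groups do not overlap.

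Inflammatory caspase and interleukin 1 receptor genes were among the highest. Casp4, the sensor of cytosolic lipopolysaccharide, stood at 10.20, 10.34 and 10.27 against 7.78, 6.82 and 7.69 (2.84 ± 0.28, adjusted p = 0.000183). Casp1, which cleaves the precursors of interleukins 1 and 18, stood at 9.11, 9.12 and 8.35 against 6.85, 6.07 and 5.77 (2.63 ± 0.32). The genes are neighbours on mouse chromosome 9 in RefSeq. Il1r2, the decoy receptor that binds interleukin 1 without signalling, stood at 9.22, 9.23 and 8.52 against 6.29, 6.40 and 5.24 (3.01 ± 0.37). The rest of this list did not go with them: Pycard, the inflammasome adaptor, differed by -0.33 ± 0.16 and Il1rap, a receptor chain, by 0.16 ± 0.25. Gsdmd, the pore former that caspases cut, was not called. Nlrp3, Il18 and Il1rn were too dim to be tested. Of 10 measured members 3 rose (30%, beside 2.22% of all genes), with a median of 0.17. The list was drawn up with earlier results of these data known, so this share is no independent evidence.

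Endosome and lysosome genes rose in part. Grn, the progranulin gene, stood at 10.62, 10.55 and 10.31 against 7.88, 7.42 and 7.80 (2.79 ± 0.28, adjusted p = 0.00019). Eea1, a tether of early endosomes, stood at 10.06, 10.63 and 9.96 against 7.98, 7.65 and 6.92 (2.70 ± 0.31), and the lysosome membrane gene Lamp2 at 8.86, 8.94 and 8.65 against 7.61, 7.73 and 7.88 (1.08 ± 0.13). The protease gene Ctsb rose by 1.21 ± 0.26 and lost its call without GFP- Tfh replicate 1 or 2 or CXCR5-PD1- replicate 2 or 3 (adjusted p = 0.0839 to 0.101). Npc2, which exports cholesterol from lysosomes, fell by 1.07 ± 0.16. Of 22 measured members 4 rose and 1 fell (22.7% called, beside 3.82% of all genes), around a median of 0.06. Ctsd (0.02), Ctss (0.10 ± 0.20) and Psap (-0.10) were not called. Grn, Ctsb and Lamp2 are also high in myeloid cells, whose markers Csf1r, Itgam, Cd14, Adgre1, C1qa, S100a8, S100a9 and Itgax were too dim to be tested. The markers Fcgr3 (0.236) and Lyz2 (-0.545) were tested and not called. The part of myeloid cells in the results was not tested. Summed over the 10 myeloid markers, the level relative to the array median was -10.1 to -9.74 on the GFP- Tfh arrays and -10.4 to -7.3 on the CXCR5-PD1- arrays.

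The remaining highest genes belong to no shared list. Sccpdh, which encodes a putative dehydrogenase, stood at 8.90, 8.71 and 8.47 against 5.39, 5.88 and 5.01 (3.26 ± 0.26, adjusted p = 6.02e-05). Gpm6b, a membrane proteolipid gene, stood at 9.11, 9.09 and 8.73 against 7.22, 6.37 and 5.77 (2.52 ± 0.44). Ptpn13, a tyrosine phosphatase gene, stood at 9.33, 9.76 and 9.17 against 7.22, 6.95 and 6.80 (2.43 ± 0.24). The lowest GFP- Tfh array stood above the highest CXCR5-PD1- array by 2.59 for Sccpdh, 1.51 for Gpm6b and 1.94 for Ptpn13. Penk, which encodes the precursor of the enkephalin opioid peptides, stood at 9.41, 9.49 and 8.75 against 6.55, 7.25 and 6.65 (2.40 ± 0.36, adjusted p = 0.00307). Zdhhc2, a palmitoyltransferase gene, stood at 8.27, 8.36 and 7.91 against 6.32, 5.83 and 5.75 (2.21 ± 0.32), and Nav2, a cytoskeletal regulator, at 9.04, 9.59 and 8.91 against 7.03, 7.13 and 6.93 (2.15 ± 0.19).

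The integrin that activates TGF-beta and a brake on its signal went in opposite directions. Itgb8 stood at 8.41, 8.61 and 8.0 against 6.38, 6.53 and 6.46 (1.88 ± 0.33, adjusted p = 0.00815), and its partner Itgav at 8.97, 9.10 and 9.17 against 8.01, 7.87 and 7.67 (1.23 ± 0.15, adjusted p = 0.000821). Smad7, which inhibits TGF-beta signalling and is induced by it, stood at 7.28, 6.80 and 7.40 against 8.83, 8.44 and 8.96 (-1.59 ± 0.23, adjusted p = 0.00204). The receptor genes Tgfbr1 (0.15 ± 0.24) and Tgfbr2 (-0.08 ± 0.16) and the ligand gene Tgfb1 (0.13 ± 0.19) were not called. Tgfbr3, a coreceptor, was lower by 0.48 ± 0.11 and lost its call without any 1 of the 6 arrays (adjusted p = 0.0689 to 0.149). Of 17 measured members 2 rose and 2 fell (23.5% called, beside 3.82% of all genes).

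Lineage genes of other T helper subsets rose only in part. Nfil3, a basic leucine zipper repressor, stood at 9.95, 10.01 and 10.42 against 8.84, 8.72 and 8.80 (1.34 ± 0.14), and Ikzf3, the gene for Aiolos, at 10.09, 9.80 and 10 against 9.10, 8.59 and 8.97 (1.08 ± 0.17). Ahr (0.85 ± 0.19) and Rora (0.78 ± 0.19) rose in the full fit and lost their calls without at least 4 arrays (adjusted p = 0.0536 to 0.184). The master regulators Tbx21 (-0.10), Gata3 (0.10) and Eomes (0.10) were not called. Of 15 measured members 4 rose (26.7%, beside 2.22% of all genes) and 0 fell. Among 16 regulatory T cell genes, Ikzf2, the gene for Helios, stood at 10.91, 11.11 and 10.99 against 9.69, 9.19 and 8.99 (1.71 ± 0.24), and Ctla4 and Tnfrsf4 rose as well. These 3 were 18.8% of the 16, beside 2.22% of all genes. Foxp3, which defines regulatory cells, stood at 7.84, 7.51 and 7.65 against 8.03, 8.15 and 7.67 (-0.28 ± 0.18, adjusted p = 0.630), which overlap. Summed over 8 regulatory T cell markers, the level above the array median was 14.1 to 15.4 on the GFP- Tfh arrays against 10.7 to 14 on the CXCR5-PD1- arrays. Of these 8, Ikzf2, Il10 and Itgae had a difference above 0 and the other 5 below, with a median of -0.07. The part of regulatory T cells in the results was not tested.

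Of 24 measured genes of signalling below the T cell receptor, 5 were called (20.8%, beside 3.82% of all genes), 2 higher and 3 lower. Malt1, a protease of the NF-kappa B pathway, stood at 11.07, 11.34 and 11.23 against 10.16, 10.32 and 10.37 (0.93 ± 0.11, adjusted p = 0.000793). Dgkz, which removes the second messenger diacylglycerol, rose by 1.03 ± 0.15 on 1 probe set and differed by 0.10 ± 0.13 on another. Dgka, of the same enzyme family, fell by 0.55 ± 0.11 and the adaptor Pag1 by 0.83 ± 0.16, and both lost their calls without at least 3 arrays (adjusted p = 0.0519 to 0.0827). The fifth was Txk. Of 24 immediate early genes 1 rose (Egr2) and 1 fell (Nr4a1), 8.33% called beside 3.82% of all genes. Nr4a1, an orphan receptor gene induced by receptor signals, fell by 0.76 ± 0.16 and lost its call without GFP- Tfh replicate 1 or 2 or CXCR5-PD1- replicate 1 or 3 (adjusted p = 0.077 to 0.113). Without GFP- Tfh replicate 1, GFP- Tfh replicate 2 or CXCR5-PD1- replicate 3 neither was called. Myc, a growth regulator, at 8.60, 8.34 and 8.02 against 9.85, 9.54 and 10.20, did not overlap between the groups but was not called (-1.54 ± 0.53, adjusted p = 0.172). Its GFP+ Tfh arrays stood at 8.92, 6.73 and 6.19, and their spread enters the shared error.

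Of 29 measured cell cycle genes 3 rose (10.3%, beside 2.22% of all genes) and 0 fell. An unadjusted p under 0.05 in limma was found for 8 of the 29, beside 1481 of all 11240 genes. The 3 that rose were Kif11, Mcm6 and Birc5 (0.57 to 1.05), each of which lost its call without at least 4 arrays (adjusted p = 0.0508 to 0.178). Mki67, the proliferation marker, stood at 7.27, 7.06 and 6.65 against 6.45, 5.98 and 5.75 and was not called (0.93 ± 0.38). Bcl2, which protects lymphocytes from death, fell by 0.98 ± 0.20. It was the 1 called gene of 14 in its family (7.14%, beside 3.82% of all genes). Its call was lost without 5 arrays, all but GFP- Tfh replicate 1 (adjusted p = 0.0501 to 0.0754). Its antagonist Bcl2l11, the gene for BIM, differed by -1.04 ± 0.27 and was not called (adjusted p = 0.0564). Hif1a, the oxygen-sensitive factor that drives glycolysis, stood at 11.68, 11.85 and 11.59 against 10.34, 10.47 and 10.47 (1.28 ± 0.12, adjusted p = 0.000171), and Pfkp, a glycolytic enzyme gene, rose by 0.76 ± 0.14 and Slc3a2, a chain of amino acid transporters, by 0.65 ± 0.13. Slc3a2 lost its call without GFP- Tfh replicate 2 or 3 or CXCR5-PD1- replicate 1 or 2 (adjusted p = 0.0666 to 0.08). These 3 were 15.8% of the 19 measured glycolysis and uptake genes, beside 2.22% of all genes, and the other 16 were not called.

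Interferon response genes and the unfolded protein response had no member called on the probe set used for its gene, 0 of 15 and 0 of 22. Over all genes 3.82% were called, so 0 calls in lists of this size lie near that share. At an unadjusted p under 0.05 in limma were 3 of the 15 and 5 of the 22, beside 1481 of all 11240 genes. The medians of the 2 lists were -0.04 and 0.02, beside 0.000627 over all genes. A second probe set of Irf1, an interferon-induced transcription factor, was called lower (-0.87 ± 0.21, adjusted p = 0.0421 over all probe sets). On the set used, Irf1 had the lowest difference of the interferon list (-0.86 ± 0.31) and Atf6 the highest of the other (1.14 ± 0.29, adjusted p = 0.0554). Among markers of further cell types, Cd8b1 stood at 6.42, 5.73 and 6.36 against 7.31, 6.79 and 6.87 and lost its call without GFP- Tfh replicate 2 or any CXCR5-PD1- array (adjusted p = 0.0511 to 0.126). The 6 markers of gamma delta, NK and CD8 cells, taken relative to each array's median, summed to -5.24 to -4.44 on the GFP- Tfh arrays and -3.3 to -0.852 on the CXCR5-PD1- arrays. Kit, from the list for innate lymphoid cells of the LTi type, rose by 0.76 ± 0.19 and lost its call without any 1 of 5 arrays, all but GFP- Tfh replicate 3 (adjusted p = 0.0807 to 0.189). The part of these cells in the results was not tested.

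The CXCR5+PD1- arrays show where GFP- cells labelled as CXCR5+ and PD1- lay. Cxcr5 stood at 5.87, 5.78 and 5.19 there, close to the CXCR5-PD1- arrays and below every GFP- Tfh array. Its RNA thus did not bear out the CXCR5+ label, and surface CXCR5 was not measured here. Il21 stood at 7.63, 6.46 and 5.41, S1pr1 at 10.83, 11.17 and 11.41, Cd55 at 8.86, 9.20 and 9.42 and Bcl6 at 8.29, 8.11 and 8.10. Between CXCR5+PD1- and CXCR5-PD1- cells limma called 0 of 11240 genes (0%), and 137 had an unadjusted p under 0.05. The GFP+ Tfh arrays enter the shared error of this test too. Their deviations from the group mean were 0.287 to 0.405, against 0.163 to 0.176 on the CXCR5+PD1- arrays. The absence of calls thus does not show that these groups are alike. GFP- Tfh against CXCR5+PD1- cells gave 422 called genes (3.75%), a comparison that shares the GFP- Tfh arrays. Of the 249 genes that rose against CXCR5-PD1- cells, the CXCR5+PD1- mean was nearer to that of CXCR5-PD1- cells in 244, and of the 180 that fell it was nearer in 177. These genes were selected with the CXCR5-PD1- arrays, so the counts are a description.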

How the data were processed

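The deposited log2 values cover 34760 probe sets and were made by the authors with RMA (oligo package), according to the submitters' processing notes. RMA subtracts background and gives all arrays 1 distribution, which compresses dim signals and hides any change common to most genes. The annotation's genome build is not stated in the labels. Symbols came from the platform annotation, updated through RefSeq (GRCm38.p6), and 21640 probe sets had exactly 1. The probe set of highest mean stood for each of 19937 genes, and 11240 that exceeded the array median on at least 3 of 12 arrays were tested. The comparison was a contrast in a limma 3.58.1 model (R 4.3.3) of all 12 arrays with 4 group means and 8 residual degrees of freedom, tested on simulated data. The GFP+ Tfh arrays enter this shared spread and vary most, with root mean square deviations from the group mean of 0.287 to 0.405, against 0.172 to 0.204 on the 6 arrays compared. Replicates are not described as separate animals, so p-values may reflect technical spread. Precision is limited by how many arrays there are.

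Members, gene lists and tests were chosen with earlier results of these data known. The shares called in the lists are therefore descriptions and no independent evidence. Some genes belong to more than 1 list, so the list counts are not separate results. Genes named are the 4 markers, the 15 highest and 15 lowest called genes with groups that do not overlap (leaving out 1 small RNA), and members of 25 functional and 10 marker lists.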

Additional observations from a re-analysis of the deposited data

How the results depend on the processing

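The number of called genes rose from 429 to 665 when the 2 groups were fitted alone, to 865 with the 9 GFP- arrays, to 791 when each group had its own weight and to 912 when each array had one. The male arrays by themselves gave 266, and leaving out each replicate in turn gave 228 to 326. The replicate numbers do not meet the rule for a pairing, which set a threshold of 0.1. Same-numbered arrays had correlations of deviations of 0.196, 0.0118 and 0.0940. GFP- Tfh replicate 2 correlated best with CXCR5-PD1- replicate 1, by a narrow margin (0.0220). The number does carry sex, since replicate 3 was female in each group, so a pairing is not excluded. With the replicate block 544 genes were called over all arrays and 863 in the 2 groups alone. Other filters, normalisations, moderation, sex as a block and other probe set rules gave 395 to 508. In the 21 settings fitted per gene no named gene that was called changed direction. Taken one by one, the other probe set of Crybg1 differed by 0.09 (not called), against -2.20. Of the 31 marker, highest and lowest genes, Rras2 lost its call with the male arrays by themselves and the other 30 kept theirs in those settings. Of 107 called list, highest, lowest and marker genes, 38 lost their call with the male arrays and 19 to 33 on leaving out 1 array. Background correction was not varied, since scanner files were not used here.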
